A study of Homo sapiens with 9 samples.

Results

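The 9 genes described here belong to the tumour necrosis factor (TNF) receptor superfamily and were measured in MCF10A, an immortalized human mammary epithelial cell line whose growth depends on added EGF. They are TNFRSF12A, CD40, TNFRSF1A, TNFRSF21, FAS, TNFRSF10A, TNFRSF10B, TNFRSF10D and TNFRSF11B, taken by symbol from the 19775 genes that the platform's annotation names on the array. A probe set, the group of short probes that reports 1 transcript, was used where it was annotated to exactly 1 of these symbols, which gave 24 of 54675 probe sets. Of the 24, 19 passed a filter on low values, and they cover 8 of the 9 genes. TNFRSF11B had no probe set past the filter.

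The study hybridised 9 one-colour Affymetrix arrays, 3 for each group. The first group, called labelled ERBB2 here, carried a pBabe retrovirus with ErbB2, a receptor tyrosine kinase. The EGF group carried the empty pBabe virus and received EGF, the ligand of the related receptor EGFR, at 50 ng/ml for 2 h before harvest. The vector group carried the empty virus and received no EGF. All 3 groups were grown beforehand with horse serum, EGF, hydrocortisone, cholera toxin and insulin, and after infection were held in 2% horse serum without EGF. Cells labelled ERBB2 and EGF cells are together called the non-control groups. The labels name no selected clone, and separate infections are not stated for the replicates; the p-values therefore cover only how far these samples vary.

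Most TNF superfamily receptors are membrane proteins that bind trimeric TNF superfamily ligands at the cell surface, and a few are secreted. Some carry a cytoplasmic death domain, which recruits adaptors such as FADD and TRADD and can start caspase-driven apoptosis, and others bind TRAF adaptors directly and feed NF-kB and MAP kinases. Decoy members bind ligand without passing on a full death signal. TNFRSF12A, also called Fn14, was first described as a growth-factor-inducible gene in mouse fibroblasts and binds the ligand TWEAK, the product of TNFSF12.

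The transcript that should define the group labelled ERBB2 did not settle the label. The brightest ERBB2 probe set averaged 98.8 ± 23.1 in cells labelled ERBB2, 104.1 ± 23.3 with EGF and 174.0 ± 48.0 in vector cells (signal, SD, n = 3 each). Its log2 change against vector was -0.71 ± 0.20 in cells labelled ERBB2 (SE, limma adjusted p = 0.006756) and -0.65 ± 0.20 with EGF (adjusted p = 0.01809). A dimmer ERBB2 probe set averaged 35.6 ± 2.51, 15.4 ± 1.19 and 12.6 ± 8.78 in the same groups. It changed by 0.89 in cells labelled ERBB2 against vector (adjusted p = 0.008824) and by 0.18 with EGF against vector (adjusted p = 0.6634). Cells labelled ERBB2 stood above EGF cells there by 0.715 (adjusted p = 0.04963). The remaining probe set changed by 0.10 in cells labelled ERBB2 against vector (adjusted p = 0.8236). Every direction given below for the arrays labelled ERBB2 rests on that label. The median signal of an array was 17.9 to 20.1 in that group, 15.6 to 16.9 with EGF and 19.85 to 20.2 in vector cells. The 5'/3' ratio of the ACTB control probe sets, a sign of RNA quality and labelling, was 0.701 to 0.796 in cells labelled ERBB2, 0.378 to 0.505 with EGF and 0.325 to 0.436 in vector cells. On the array's 18S ribosomal RNA control, the 3' probe set gave 11930 to 13510 in cells labelled ERBB2, 2103 to 3369 with EGF and 1945 to 4570 in vector cells. The GAPDH 5'/3' ratio overlapped between the groups, at 0.838 to 0.901, 0.762 to 0.850 and 0.821 to 0.885. The part of these control differences in the receptor results was not tested. All 8 measured epithelial markers had a mean signal above 16 in each group, with summed signals of 18210 to 19600 in cells labelled ERBB2, 20780 to 23700 with EGF and 22590 to 25560 in vector cells. Of these 8, 3 were called higher in cells labelled ERBB2 against vector and 5 lower, against 20.8% and 25.0% of all genes tested. Those higher were EPCAM (1.13), KRT18 (0.83) and LAMB3 (0.53). The largest change was that of KRT14, a basal keratin, which averaged 148.9 ± 9.66 in cells labelled ERBB2, 1758 ± 48.5 with EGF and 2640 ± 432 in vector cells (SD, n = 3 each). Its log2 change was -4.0 in cells labelled ERBB2 against vector (adjusted p = 9.072e-17) and -0.57 with EGF (adjusted p = 0.0001678). The 6 fibroblast markers summed to 394.7 to 576.2, 501.6 to 557.6 and 1358 to 1509 in these groups, with 3, 4 and 4 of the 6 under 16. DCN, decorin, held most of that sum, at 378.4 ± 73.7 in cells labelled ERBB2, 433.4 ± 27.3 with EGF and 1345 ± 82.8 in vector cells. The 7 measured blood and endothelial markers summed to 248.8 to 318.9, 254.4 to 270.6 and 235.0 to 263.9. The part of other cell types in the results was not tested, and in bulk RNA fewer cells of a type and less RNA per cell cannot be told apart.

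In cells labelled ERBB2, TNFRSF12A, TNFRSF21, TNFRSF10A and FAS were higher than in vector cells, and TNFRSF10D, TNFRSF1A and TNFRSF10B were lower. After 2 h of EGF the genes called higher were again TNFRSF12A, TNFRSF21, TNFRSF10A and FAS, and those called lower were TNFRSF10D, CD40 and TNFRSF1A. The 2 comparisons share the vector arrays, so their likeness carries no independent support. Each gene is represented by its brightest probe set, a call is a Benjamini-Hochberg adjusted p under 0.05 over all probe sets tested, and a log2 change is a difference of mean log2(signal + 16). In cells labelled ERBB2 against vector, 4 of the 8 tested members were called higher and 3 lower, where 20.8% and 25.0% of all 13726 genes tested were called in those directions. In EGF against vector, 4 were called higher and 3 lower, against 17.2% and 18.9% of all genes. Between the non-control groups, 1 was called higher in cells labelled ERBB2 than with EGF and 3 lower, against 12.8% and 16%. The median change over the 8 members was -0.01, 0.21 and -0.10 in these comparisons, beside -0.07, -0.10 and 0.01 over all genes tested.

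**Figure D1:**
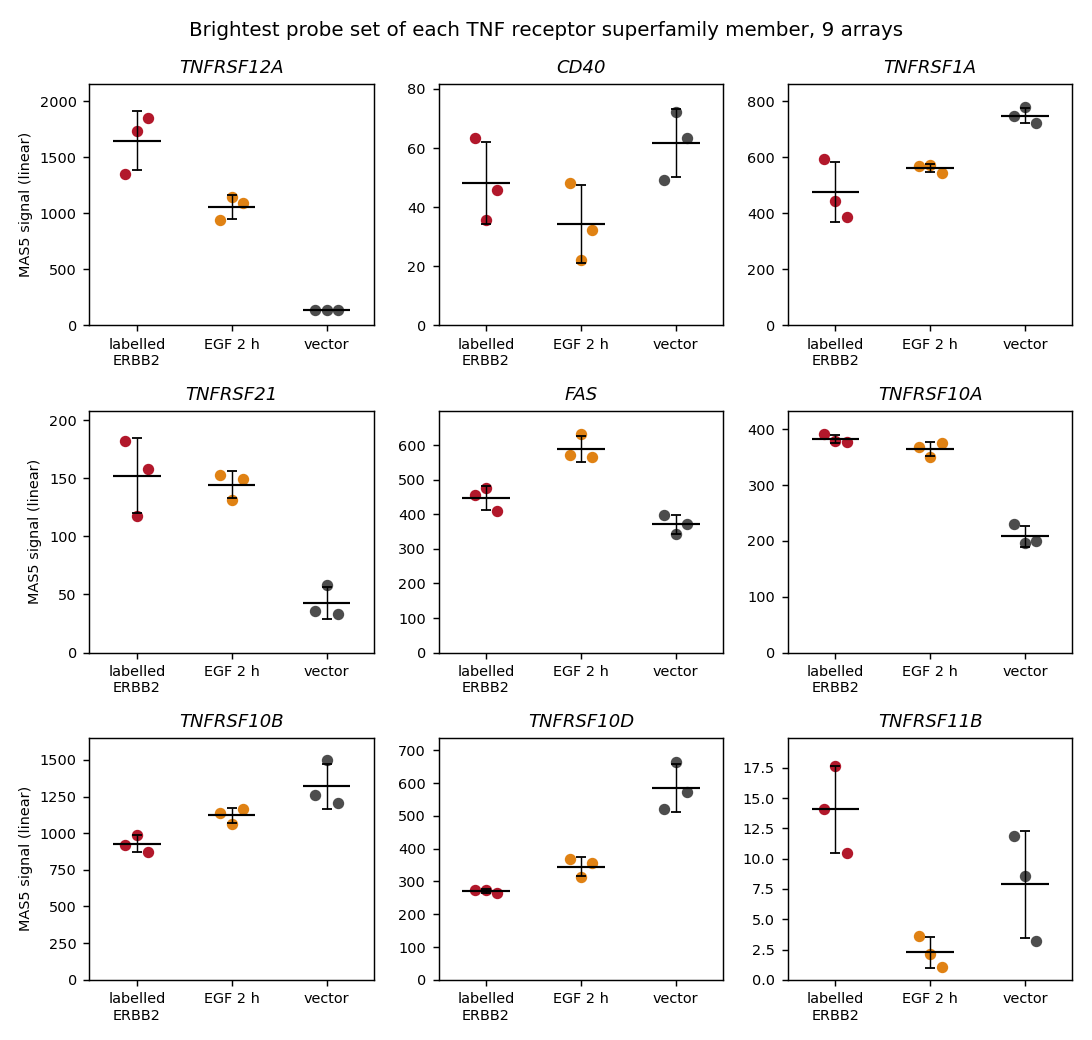
Linear array signal of the brightest probe set of each of the 9 receptors, with 1 point per array, a bar at the mean and whiskers of 1 SD (n = 3). TNFRSF12A reads between 1354 and 1853 in cells labelled ERBB2, between 937.7 and 1143 with EGF and between 135.4 and 139.4 in vector cells, and TNFRSF10D is highest in vector cells.

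TNFRSF12A, the receptor without a death domain that binds TWEAK and signals through TRAF adaptors, was read by a single probe set, 218368_s_at. Its signal was 1354, 1736 and 1853 in cells labelled ERBB2, 937.7, 1143 and 1091 with EGF, and 135.4, 139.4 and 135.7 in vector cells. The 3 groups did not overlap: all arrays labelled ERBB2 lay above all EGF arrays, and all EGF arrays lay above all vector arrays. The means were 1648 ± 261 in cells labelled ERBB2, 1058 ± 107 with EGF and 136.8 ± 2.26 in vector cells (SD, n = 3 each). The log2 change was 3.43 ± 0.11 in cells labelled ERBB2 against vector (SE, adjusted p = 5.501e-15), a 10.8-fold difference on the log2(signal + 16) scale. With EGF against vector it was 2.81 ± 0.11 (adjusted p = 3.576e-13), or 7.0-fold. Cells labelled ERBB2 stood above EGF cells by 0.62 ± 0.11 (adjusted p = 0.0002383). Among the 13726 genes tested, 6 had a larger rise in cells labelled ERBB2 against vector and 16 had a larger rise with EGF. In the direct comparison of cells labelled ERBB2 with EGF cells, 1061 genes had a larger positive change.

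The genes whose pattern over the 9 arrays was most like that of TNFRSF12A were sought by Pearson's r of log2(signal + 16) among 545 genes whose SD over the arrays was at least 50% of its own. LRRC59, a ribosome-binding membrane protein of the endoplasmic reticulum, came first (r = 0.996), followed by the ceramidase ACER3 (0.994), the CTP synthase CTPS1 (0.992), the replication origin factor ORC6 (0.991) and the fatty acid binding protein FABP5 (0.991). The points share the same 9 arrays and 3 groups, so group means carry most of each value. Over deviations from the group means the r values were 0.615, 0.361, 0.075, 0.725 and 0.531 in the same order. FABP5 averaged 1677 ± 45.5 in cells labelled ERBB2, 963.4 ± 62.0 with EGF and 237.1 ± 17.6 in vector cells (signal, SD, n = 3 each), the same order of groups as TNFRSF12A.

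CD40, a receptor without a death domain that is best known for T-cell help to B cells and is also made by epithelial cells, was dim. Its brightest probe set, 35150_at, read 63.3, 35.7 and 45.8 in cells labelled ERBB2, 48.3, 22.2 and 32.2 with EGF and 49.2, 72.1 and 63.4 in vector cells. The arrays labelled ERBB2 overlapped both other groups, and all EGF arrays lay below all vector arrays. The change was -0.28 ± 0.23 in cells labelled ERBB2 against vector (adjusted p = 0.3585) and -0.65 ± 0.23 with EGF against vector (adjusted p = 0.03794). The call with EGF ended in 8 of 20 alternatives, among them without vector replicate 2 (-0.55, adjusted p = 0.134), without vector replicate 3 (-0.63, 0.09643), without EGF replicate 2 (-0.47, 0.1832) and without EGF replicate 3 (-0.64, 0.08981). Over the 20 alternatives its adjusted p lay between 0.01471 and 0.1832. The other tested probe set, 215346_at, was not called in any comparison, and 2 further ones did not pass the filter.

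TNFRSF1A, TNF receptor 1, carries a death domain and is the main receptor for soluble TNF. Its only probe set read 595.7, 445.7 and 386.0 in cells labelled ERBB2, 570.8, 571.3 and 545.7 with EGF and 747.2, 778.7 and 722.0 in vector cells. Vector arrays were the highest and overlapped neither other group, and the arrays labelled ERBB2 spread across the level of the EGF arrays. TNFRSF1A fell by 0.66 ± 0.12 on the log2 scale in cells labelled ERBB2 against vector (adjusted p = 0.0001209) and by 0.40 ± 0.12 with EGF against vector (adjusted p = 0.01278). The EGF call ended when all arrays were given the same median (-0.11, adjusted p = 0.6079) and with a variance prior without trend (-0.40, 0.08955), the range over 20 alternatives being 0.001407 to 0.6079. Cells labelled ERBB2 differed from EGF cells by -0.26 ± 0.12 (adjusted p = 0.1255), which was called without ERBB2 replicate 1 (-0.43, adjusted p = 0.003994) and with equal array medians (-0.46, adjusted p = 0.01044; range over 20 alternatives 0.003994 to 0.5126).

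TNFRSF21, death receptor 6, carries a death domain and is known from neurons and lymphocytes. Its brightest probe set, 218856_at, read 181.6, 117.4 and 157.8 in cells labelled ERBB2, 152.3, 131.5 and 149.6 with EGF and 36.1, 58.2 and 33.4 in vector cells. Both non-control groups lay above all vector arrays and overlapped each other. TNFRSF21 rose by 1.53 ± 0.18 in cells labelled ERBB2 against vector (adjusted p = 9.101e-07) and by 1.48 ± 0.18 with EGF against vector (adjusted p = 2.934e-06). Cells labelled ERBB2 and EGF cells differed by 0.05 ± 0.18 (adjusted p = 0.8806). The second probe set, 214581_x_at, was called higher in both comparisons with vector, by 0.95 (adjusted p = 0.008097) and 0.80 (adjusted p = 0.03054).

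The 250 bases before the transcription start are shown for TNFRSF21, which was called higher, and TNFRSF1A, which was called lower, in both comparisons with vector. They come from RefSeq on GRCh38.p14, written 5′ to 3′ along the gene, at chr6:47309906-47310155 (minus strand) and chr12:6342077-6342326 (minus strand), and capitals mark motif matches.
TNFRSF21: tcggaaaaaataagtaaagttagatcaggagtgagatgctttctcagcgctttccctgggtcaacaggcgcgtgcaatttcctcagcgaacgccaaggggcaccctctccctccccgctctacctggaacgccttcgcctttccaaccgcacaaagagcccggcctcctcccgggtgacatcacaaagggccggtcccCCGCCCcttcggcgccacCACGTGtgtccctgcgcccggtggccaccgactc
TNFRSF1A: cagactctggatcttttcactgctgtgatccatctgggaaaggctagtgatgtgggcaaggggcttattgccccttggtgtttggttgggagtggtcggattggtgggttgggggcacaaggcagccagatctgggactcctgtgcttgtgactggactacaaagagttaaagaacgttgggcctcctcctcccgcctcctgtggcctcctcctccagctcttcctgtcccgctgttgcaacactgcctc
The motifs searched on both strands were the GC box GGGCGG, the E-box CACGTG, AP-1 TGAGTCA, CRE TGACGTCA, ETS CCGGAAGT, EGR GCGGGGGCG, FOX TGTTTAC, TEAD GGAATG and the NF-kB site, a panel chosen after these sequences had been seen. GC box and EGR matches can overlap. TNFRSF21 held 1 GC box, on the strand opposite to the one shown, and 1 E-box, and TNFRSF1A held no match. Of 35116 promoters of the same length, 42.64% held the GC box and 6.34% the E-box. The shares were 4.2% for AP-1, 1.65% for CRE, 3.42% for ETS, 4.72% for EGR, 2.98% for FOX, 11.89% for TEAD and 5.21% for the NF-kB site. A match is a description of letters, and its use in these cells was not tested. The table gave FAS 3 starts close together, each with at least 1 GC box in its window. In the listed order, windows 1 and 3 overlap and hold the same GC box, and window 2 also held an EGR and an NF-kB match. TNFRSF12A, CD40, TNFRSF10A, TNFRSF10B, TNFRSF10D and TNFRSF11B had no promoter entry and were not searched.

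FAS, the receptor of FAS ligand and the prototype of a death-domain receptor, was higher in both non-control groups and highest with EGF. Its brightest probe set, 204780_s_at, read 456.6, 474.7 and 408.5 in cells labelled ERBB2, 570.1, 632.8 and 566.4 with EGF and 398.5, 342.5 and 371.1 in vector cells. The 3 groups did not overlap, although the lowest array labelled ERBB2 came close to the highest vector array. FAS rose by 0.65 ± 0.10 with EGF against vector (adjusted p = 3.842e-05) and by 0.26 ± 0.10 in cells labelled ERBB2 against vector (adjusted p = 0.04288). Cells labelled ERBB2 stood below EGF cells (-0.39 ± 0.10, adjusted p = 0.00577). The call in cells labelled ERBB2 against vector ended in 10 of 20 alternatives. These include leaving out vector replicate 2 (0.20, adjusted p = 0.1522), vector replicate 3 (0.26, 0.08675), ERBB2 replicate 1 (0.24, 0.09683), ERBB2 replicate 2 (0.21, 0.144) or EGF replicate 3 (0.26, 0.05655), and over the 20 its adjusted p lay between 0.02342 and 0.1522. The 3 next probe sets of FAS were called higher in both comparisons with vector, by 0.48, 0.30 and 0.47 in cells labelled ERBB2 and by 0.64, 0.64 and 0.71 with EGF. Another, dim probe set, 233820_at, was called in none.

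TNFRSF10A, TNFRSF10B and TNFRSF10D encode receptors for TRAIL, the product of TNFSF10, and lie in a single gene cluster on chromosome 8 in RefSeq's GRCh38.p14 annotation. TNFRSF10A and TNFRSF10B carry a full death domain, and TNFRSF10D, a decoy, has a truncated one. In cells labelled ERBB2 the brightest probe sets of the 3 genes moved in different directions: TNFRSF10A was called higher than in vector cells, and TNFRSF10B and TNFRSF10D were called lower.

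TNFRSF10A, TRAIL receptor 1, read 390.9, 378.6 and 377.9 at 231775_at in cells labelled ERBB2, 368.5, 350.0 and 374.5 with EGF and 229.5, 196.2 and 199.0 in vector cells. All non-control arrays lay above all vector arrays, and the arrays labelled ERBB2 lay just above the EGF arrays. TNFRSF10A rose by 0.83 ± 0.10 in cells labelled ERBB2 against vector (adjusted p = 1.498e-06) and by 0.77 ± 0.10 with EGF against vector (adjusted p = 8.536e-06). The difference of 0.07 ± 0.10 between the non-control groups was not called (adjusted p = 0.7001). A second probe set was called higher in both comparisons with vector, by 0.49 (adjusted p = 0.01908) and 0.53 (adjusted p = 0.01539), and another stood at 0.23 (0.2316) and 0.24 (0.2428).

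TNFRSF10B, TRAIL receptor 2, read 917.5, 990.5 and 874.0 at 209295_at in cells labelled ERBB2, 1141, 1066 and 1164 with EGF and 1261, 1496 and 1203 in vector cells. The groups did not overlap and stood in the order vector, EGF, labelled ERBB2. TNFRSF10B fell by 0.50 ± 0.09 in cells labelled ERBB2 against vector (adjusted p = 0.0001315), and the change with EGF was -0.22 ± 0.09 (adjusted p = 0.0659). The EGF change was called lower in 4 of 20 alternatives, namely the 60th percentile filter (adjusted p = 0.04962), quantile normalization (0.02125), without vector replicate 3 (-0.29, 0.04166) and the mean of the probe sets (-0.32, 0.01758), the range being 0.01758 to 0.6771. Its other probe sets went against this pattern. At 209294_x_at the changes were -0.09 in cells labelled ERBB2 against vector (adjusted p = 0.6697) and -0.55 with EGF against vector (adjusted p = 0.006051). At 210405_x_at they were 0.40 (adjusted p = 0.0515) and -0.19 (adjusted p = 0.4143). In cells labelled ERBB2 against EGF the brightest probe set was called lower (-0.27, adjusted p = 0.02948), and these 2 were called higher (0.46, adjusted p = 0.0227, and 0.59, adjusted p = 0.009091), so that the direction depends on the probe set. The call of the brightest one ended without ERBB2 replicate 1 (-0.27, adjusted p = 0.0674), ERBB2 replicate 3 (-0.23, 0.1168), EGF replicate 1 (-0.26, 0.08201) or EGF replicate 3 (-0.25, 0.1066), with a range of 0.001296 to 0.1542 over 20 alternatives. The mean of all probe sets gave -0.06 in cells labelled ERBB2 against vector (adjusted p = 0.6417, range over 20 alternatives 4.839e-05 to 0.6417).

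TNFRSF10D, the TRAIL decoy, read 273.8, 274.2 and 264.9 at 227345_at in cells labelled ERBB2, 368.9, 312.7 and 355.2 with EGF and 520.2, 663.2 and 571.4 in vector cells. The 3 groups did not overlap, and vector arrays were the highest. TNFRSF10D fell by 1.06 ± 0.11 in cells labelled ERBB2 against vector (adjusted p = 1.051e-07) and by 0.73 ± 0.11 with EGF against vector (adjusted p = 2.58e-05). The second probe set, 210654_at, was also called lower with EGF (-0.67, adjusted p = 0.01143). It changed by 0.25 in cells labelled ERBB2 against vector (adjusted p = 0.3392). Between the non-control groups the 2 probe sets were called in opposite directions, -0.33 at 227345_at (adjusted p = 0.02856) and 0.92 at 210654_at (adjusted p = 0.001247). Without ERBB2 replicate 1, 2 or 3 or without EGF replicate 1 or 3 the first of these calls ended (adjusted p = 0.05166, 0.05539, 0.07705, 0.1142 and 0.09543, range over 20 alternatives 0.001595 to 0.1142).

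TNFRSF11B, osteoprotegerin, is a secreted decoy for RANKL and TRAIL. Both its probe sets lay below the filter and were not tested in the main analysis. At the brighter one, 204932_at, the signal was 14.1, 17.6 and 10.4 in cells labelled ERBB2, 3.64, 2.10 and 1.02 with EGF and 11.9, 8.59 and 3.16 in vector cells. Vector arrays overlapped both other groups, and all arrays labelled ERBB2 lay above all EGF arrays. Without the filter, TNFRSF11B was called higher in cells labelled ERBB2 than with EGF. Whether such low signals exceed background is unknown.

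Counted by probe set, 9 of the 19 tested member probe sets were called higher and 3 lower in cells labelled ERBB2 against vector, where 17.7% and 21.0% of all 32768 probe sets were called. With EGF against vector 9 were called higher and 5 lower, against 12.9% and 15.9%. Between the non-control groups 4 were called higher in cells labelled ERBB2 and 4 lower, against 11.6% and 12.2%. Probe sets of 1 gene share a transcript and are not independent. The balance of calls over all probe sets with EGF depends on the scaling of the arrays. As deposited, 44.8% of the calls were higher with EGF against vector, and with equal array medians 78.0% were. The corresponding shares in cells labelled ERBB2 against EGF were 48.7% and 23.7%. Equal array medians moved the median change of all probe sets to 0.11 with EGF against vector, where it was -0.11 as deposited, and to -0.13, where it was 0.03, in cells labelled ERBB2 against EGF.

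**Figure D2:**
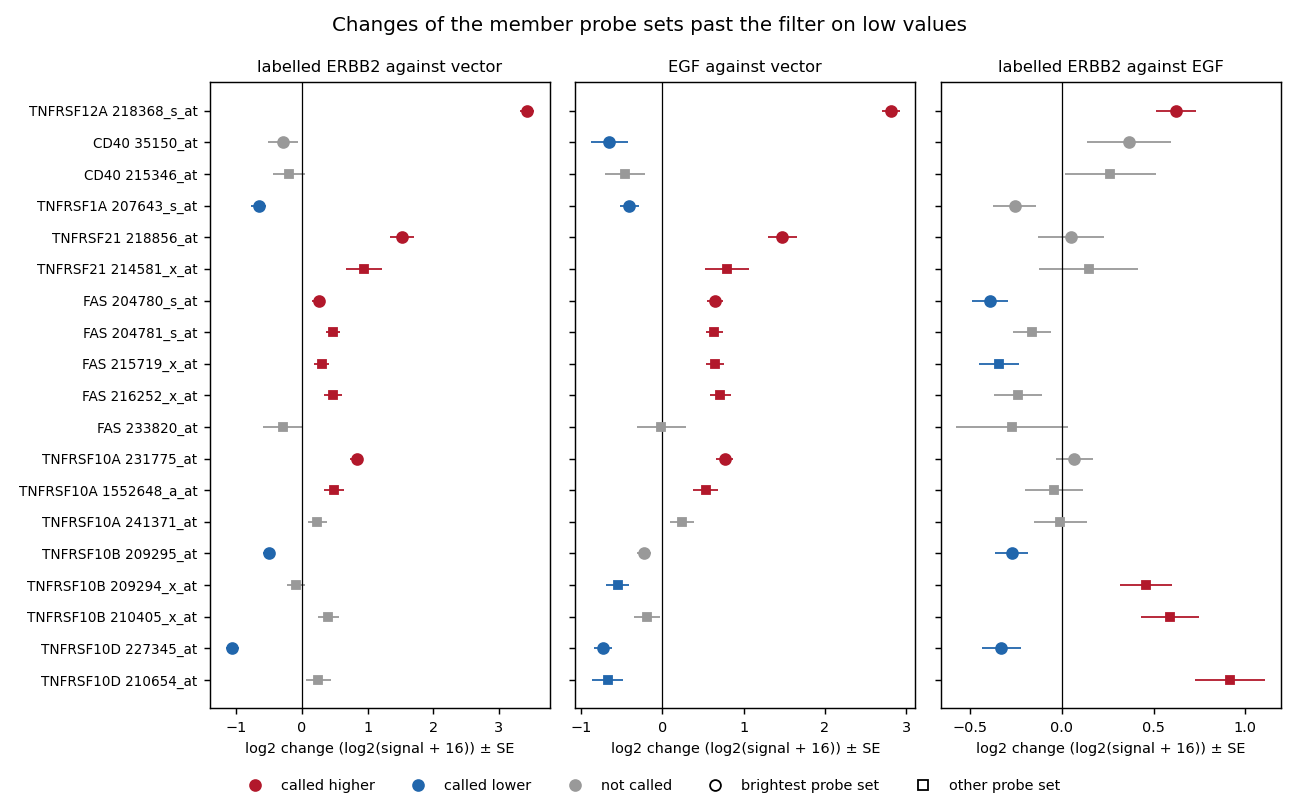
Log2 change with its SE (limma, log2(signal + 16)) of each of the 19 member probe sets past the filter, in cells labelled ERBB2 against vector, EGF against vector and cells labelled ERBB2 against EGF. TNFRSF12A has the largest rise among them in both comparisons with vector, and the probe sets of TNFRSF10B and of TNFRSF10D lie on both sides of 0 in cells labelled ERBB2 against EGF.

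Among 20 other TNF receptors, 11 were tested, 2 were called higher and 0 lower by limma in cells labelled ERBB2 against vector, with a median change of -0.10. With EGF against vector 1 was called higher and 0 lower (median 0.12). At an unadjusted p under 0.05 the counts of lower receptors were 1 and 0. For all genes tested, the shares called higher and lower were 20.8% and 25.0% in the first comparison and 17.2% and 18.9% in the second. TNFRSF11A, the signalling receptor RANK, read 60.5, 72.1 and 81.8 in cells labelled ERBB2, 49.7, 57.3 and 55.7 with EGF and 30.4, 49.6 and 34.6 in vector cells. All arrays labelled ERBB2 lay above all vector arrays, with a change of 0.70 (adjusted p = 0.006111), and with EGF it changed by 0.39 (adjusted p = 0.1431). The other tested probe set of TNFRSF11A was called in neither comparison. It had the same sign in cells labelled ERBB2 against vector and the opposite sign with EGF. RELT rose by 1.13 in cells labelled ERBB2 against vector (adjusted p = 0.02193), a call that ended in 6 of 20 alternatives (adjusted p between 0.002723 and 0.1051). Among these were leaving out vector replicate 1 (1.01), vector replicate 3 (0.88), ERBB2 replicate 1 (1.09) or ERBB2 replicate 3 (1.03). LTBR, the lymphotoxin beta receptor, was called higher by 0.30 with EGF (adjusted p = 0.03786), but that call ended in 8 of 20 alternatives (adjusted p between 0.0005595 and 0.3762). Among these were leaving out vector replicate 1 (0.22), vector replicate 2 (0.32), EGF replicate 2 (0.24) or EGF replicate 3 (0.32). LTBR stood lower in cells labelled ERBB2 than with EGF (-0.56, adjusted p = 0.0004862), a direction that turned with the mean of its probe sets. TNFRSF25 was lower in cells labelled ERBB2 than with EGF (-0.71, adjusted p = 0.02508) although those arrays overlapped. That call ended in 5 of 20 alternatives (adjusted p between 0.004323 and 0.1477), among them without ERBB2 replicate 2 (-0.46), EGF replicate 1 (-0.64) or EGF replicate 3 (-0.64).

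Among the ligands, the brightest probe sets of TNFSF11 and TNFSF10 were lower in both comparisons with vector. Of 18 ligands 13 were tested, and 1 was called higher and 4 lower in cells labelled ERBB2 against vector (median -0.26). With EGF against vector 0 were called higher and 3 lower by limma (median -0.20), and at an unadjusted p under 0.05 the count of higher ligands with EGF was also 0. Of all genes tested, 20.8% were called higher and 25.0% lower in the first comparison and 17.2% and 18.9% in the second. TNFSF11, RANKL, the ligand of TNFRSF11A and of the decoy TNFRSF11B, read 6.82, 12.5 and 13.0 in cells labelled ERBB2, 5.45, 1.16 and 8.27 with EGF and 177.0, 163.4 and 200.5 in vector cells. It was low on all 6 non-control arrays, and the change was -2.88 ± 0.22 in cells labelled ERBB2 (adjusted p = 2.409e-09) and -3.24 ± 0.22 with EGF (adjusted p = 1.24e-09). The non-control signals lie under the pseudocount of 16, so the size depends on that choice: over 20 alternatives, pseudocounts of 1 and 64 among them, it ran from -3.99 to -1.71 and from -5.16 to -1.82, called in all. TNFSF10, TRAIL, read 0.364, 17.8 and 17.6 in cells labelled ERBB2, 22.9, 29.2 and 26.9 with EGF and 101.9, 111.8 and 158.2 in vector cells. Vector arrays were again far above both other groups, with changes of -2.38 ± 0.26 in cells labelled ERBB2 (adjusted p = 3.625e-07) and -1.71 ± 0.26 with EGF (adjusted p = 4.538e-05). The sizes likewise ran from -3.97 to -1.30 and from -2.17 to -1.05 over the 20 alternatives, called in all. The 2 other tested probe sets of TNFSF10 and the other one of TNFSF11 were called lower in both comparisons with vector.

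TNFSF14, the ligand LIGHT, fell by 1.57 in cells labelled ERBB2 against vector (adjusted p = 7.747e-05) and by 0.76 with EGF (adjusted p = 0.03772), the size in cells labelled ERBB2 running from -3.20 to -0.67 over 19 alternatives. The EGF call ended in 9 of 19 (adjusted p between 0.01062 and 0.1897), among them without vector replicate 1 (-0.80), 2 (-0.80) or 3 (-0.69) and without EGF replicate 1 (-0.76) or 2 (-0.55). CD70, the ligand of CD27, fell by 0.33 in cells labelled ERBB2 (adjusted p = 0.02797), the smallest change among the called ligands, and was not tried under the alternatives. TNFSF13, APRIL, was the ligand called higher in cells labelled ERBB2: it read 168.8, 156.2 and 109.7 there, 67.1, 66.0 and 72.4 with EGF and 80.3, 81.8 and 109.1 in vector cells, with 1 array labelled ERBB2 barely above the highest vector array (0.59, adjusted p = 0.008882). Without ERBB2 replicate 1 that call ended (0.48, adjusted p = 0.05242, range over 20 alternatives 0.001876 to 0.05242). FASLG, the ligand of FAS, was dim and was not called in any of the 3 comparisons. TNF lay below the filter, and TNFSF12 and CD40LG, the ligands of TNFRSF12A and CD40, had no single-gene probe set and were not analysed here.

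**Figure D3:**
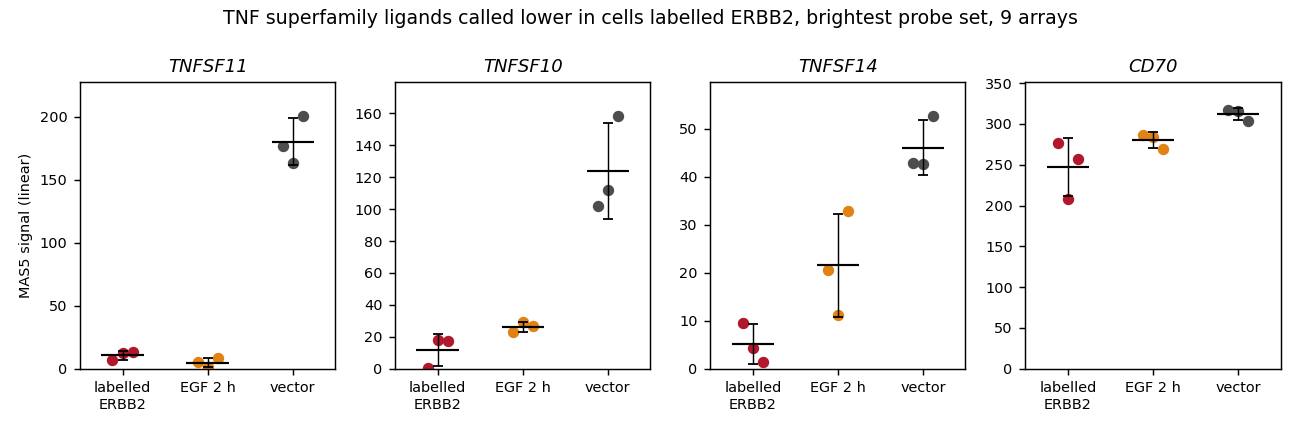
Linear array signal of the 4 ligands called lower in cells labelled ERBB2 against vector, with 1 point per array, a bar at the mean and whiskers of 1 SD (n = 3). TNFSF11 lies between 163.4 and 200.5 in vector cells and at or below 13.0 on all 6 other arrays.

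Among 13 adaptors that bind death domains or belong to the TRAF pathway, 11 were tested, with 3 called higher and 3 lower in cells labelled ERBB2 against vector (median -0.09) and 4 higher and 2 lower with EGF (median -0.09). The shares over all genes were 20.8% and 25.0% in the first comparison and 17.2% and 18.9% in the second. TRAF5, an adaptor of CD40 and related receptors, read 180.2, 208.2 and 256.6 in cells labelled ERBB2, 205.4, 222.7 and 213.4 with EGF and 57.4, 69.1 and 49.5 in vector cells. Vector arrays were lowest throughout, and TRAF5 rose by 1.62 ± 0.15 in cells labelled ERBB2 (adjusted p = 2.314e-08) and by 1.63 ± 0.15 with EGF (adjusted p = 5.387e-08). TRAF3, which restrains non-canonical NF-kB, rose by 0.97 and 0.80 in these comparisons. Its other probe set had the opposite sign with EGF, and the mean of both gave 0.23 there (adjusted p = 0.1685, range over 20 alternatives 2.949e-05 to 0.1685). FADD, the adaptor of FAS and the TRAIL receptors, rose by 0.48 and 0.62 in the same comparisons. TRAF4 was called lower in both (-0.63, adjusted p = 0.004008, and -0.95, adjusted p = 0.000162). Its 3 other tested probe sets were called in neither and had the opposite sign in cells labelled ERBB2 against vector. TRADD was called lower in cells labelled ERBB2 (-0.66, adjusted p = 0.002655) but not with EGF (-0.32, adjusted p = 0.1594). TAB2, an adaptor of the kinase TAK1, fell by 1.12 in cells labelled ERBB2 (adjusted p = 7.338e-08) and by 0.32 with EGF (adjusted p = 0.03332).

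Of 11 caspases, inhibitors and related genes of the death receptor pathway, 8 were tested, with 2 called higher and 2 lower in cells labelled ERBB2 against vector (median 0.25) and 3 higher and 0 lower by limma with EGF (median 0.05), where 1 was lower at an unadjusted p under 0.05. Among all genes, 20.8% were called higher and 25.0% lower in the first comparison, and 17.2% and 18.9% in the second. BID, which links death receptors to mitochondria, rose by 0.70 in cells labelled ERBB2 (adjusted p = 0.0001218) and by 0.82 with EGF (adjusted p = 3.543e-05). CASP8, the initiator caspase of FAS and the TRAIL receptors, changed by 0.22 in cells labelled ERBB2 (adjusted p = 0.1202) and rose by 0.49 with EGF (adjusted p = 0.001682). The other tested probe set of CASP8 was called higher in both comparisons with vector. CASP8 is inhibited by CFLAR. CFLAR was higher in cells labelled ERBB2 than with EGF at the brightest probe set (0.52, adjusted p = 0.02081), a direction that turned with the mean of its probe sets. The call also ended without ERBB2 replicate 1 (0.41) or EGF replicate 1 (0.33). Of the 11 other tested probe sets of CFLAR, 0 were called in that comparison. Against vector, 7 of these 11 were called lower in cells labelled ERBB2 and 7 with EGF, and 0 were called higher in either. The brightest one was called in neither comparison with vector (0.27, adjusted p = 0.1943, and -0.25, adjusted p = 0.2709). BIRC2 and XIAP were called lower in cells labelled ERBB2 against vector (-0.45, adjusted p = 0.0002681, and -0.38, adjusted p = 0.03963). The XIAP call ended in 8 of 20 alternatives (adjusted p between 0.003258 and 0.5295).

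All 12 NF-kB subunits and feedback genes were tested. In cells labelled ERBB2 against vector 1 was called higher and 5 lower (median -0.38), and with EGF against vector 1 was called higher and 2 lower (median -0.28). Over all genes, 20.8% were called higher and 25.0% lower in the first comparison, and 17.2% and 18.9% in the second. NFKBIA, the inhibitor IkB-alpha and itself an NF-kB target, read 818.0, 884.8 and 869.0 in cells labelled ERBB2, 1486, 1398 and 1185 with EGF and 2442, 2698 and 2500 in vector cells. The 3 groups did not overlap, with changes of -1.55 ± 0.09 in cells labelled ERBB2 (adjusted p = 1.93e-11) and -0.91 ± 0.09 with EGF (adjusted p = 9.535e-08). TNFAIP3, the deubiquitinase A20, read 86.0, 55.3 and 59.1 in cells labelled ERBB2, 279.7, 220.3 and 230.0 with EGF and 255.3, 317.6 and 293.8 in vector cells. It was low in cells labelled ERBB2 alone, by -1.89 ± 0.15 against vector (adjusted p = 3.396e-09) and -1.66 ± 0.15 against EGF (adjusted p = 7.614e-08), and stood at -0.24 with EGF against vector (adjusted p = 0.2668). The subunit REL fell by 1.56 and by 1.0 in the comparisons with vector. TNIP1, a partner of A20, was called higher in cells labelled ERBB2 (0.41, adjusted p = 0.004615) and with EGF (0.93, adjusted p = 1.522e-06), while its other probe set had the opposite sign in both.

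The 10 genes of ERK output, the transcriptional read-out of the kinase cascade downstream of EGFR and ERBB2, were all tested. All were called higher in both comparisons with vector, where 20.8% and 17.2% of all genes were. Their median change was 2.53 in cells labelled ERBB2 and 2.66 with EGF. Earlier results of these data were known when this list was drawn up. Its count beside those shares is therefore a description and no independent test. The same holds for the other gene lists and the members. DUSP6, an ERK phosphatase, rose by 5.29 in cells labelled ERBB2 (adjusted p = 1.36e-14) and by 6.83 with EGF (adjusted p = 1.11e-15). Its vector signals of 1.01, 15.5 and 11.8 lie under the pseudocount of 16, so the size depends on that choice, and over 20 alternatives the rises ran from 3.79 to 6.98 and from 5.28 to 8.53, called in all. Between the non-control groups the list was split: 3 of the 10 were called higher in cells labelled ERBB2 than with EGF and 4 lower (median -0.25). PHLDA1 (-2.33, adjusted p = 6.208e-11) and DUSP6 (-1.54, adjusted p = 2.091e-06) were among those lower. So was EGR1, a transcription factor induced early by growth factors (-1.11, adjusted p = 1.67e-07). ETV5 was among those higher (1.19, adjusted p = 5.091e-05), the direction of TNFRSF12A (0.62, adjusted p = 0.0002383).

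**Figure D4:**
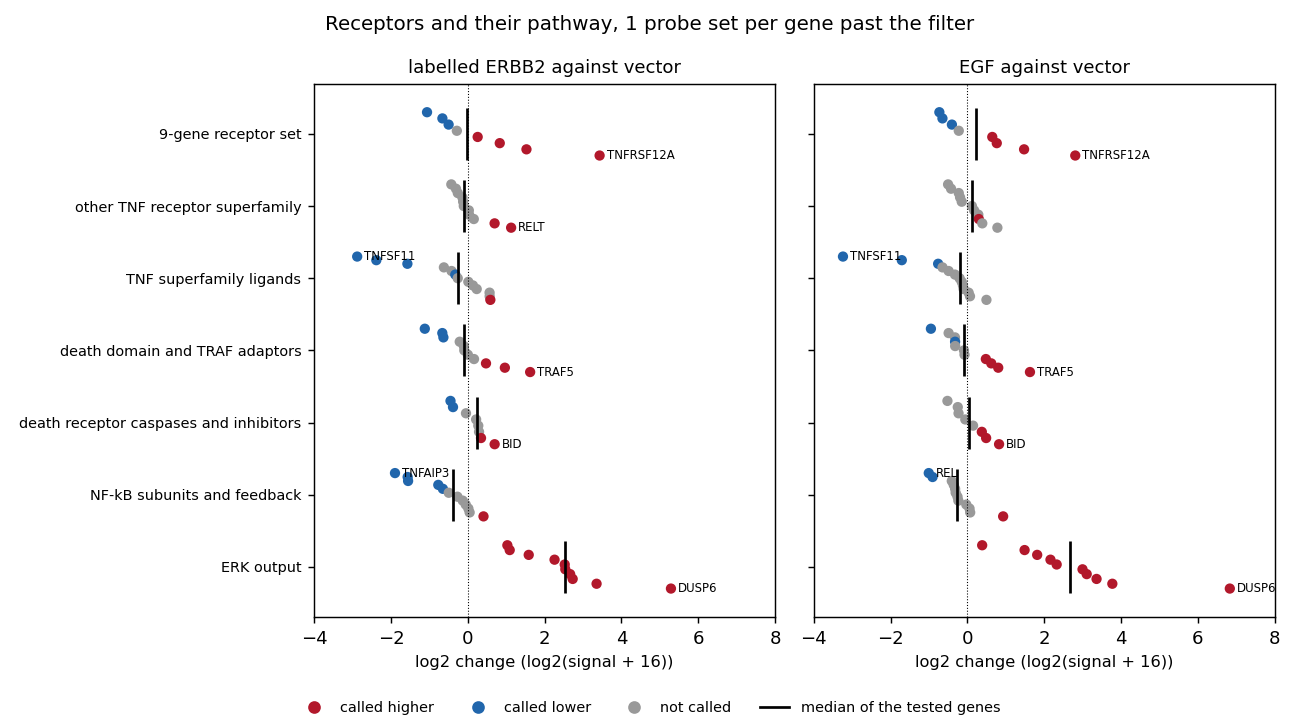
Log2 change (log2(signal + 16)) of the tested genes of each list in cells labelled ERBB2 against vector and EGF against vector, with 1 point per gene, the list's median as a bar and the gene of the largest change named where it was called. TNFRSF12A lies at 3.43 and 2.81, the ERK output medians at 2.53 and 2.66, and TNFSF11 at -2.88 and -3.24.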

How the data were processed

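RNA of 9 MCF10A samples was read on 1 array each. The deposited values are linear signal intensities. The submitters' processing notes name MAS5 as the authors' tool for these intensities, and the sources used here do not give its settings. Each array was scaled as a whole, so shifts of many genes one way are partly absorbed, and detection calls were not used. Gene names came from the platform's annotation, and all 9 receptor symbols matched RefSeq. The members and gene lists were chosen with earlier results of these data known.

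Analysis used log2(signal + 16), which understates changes of dim genes. After removal of 62 control probe sets, those whose mean exceeded the 40th percentile were tested, 32768 in number. Limma 3.58.1 in R 4.3.3 (lmFit, eBayes with a variance trend) fitted 3 group means over 9 arrays, leaving 6 residual degrees of freedom. Adjustment was by Benjamini-Hochberg over all of them, and an adjusted p under 0.05 was a call. The number of arrays limits the precision: an exact permutation test of 1 gene with 3 against 3 arrays has a smallest p of 0.1. The steps were tested on simulated data.

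From the lists, the up to 4 called genes with the largest change per list and comparison, and the receptors' ligands, could be named. CD70 was added outside this rule as the remaining ligand called lower in cells labelled ERBB2. The 5 genes most like TNFRSF12A needed an SD of at least 50% of its own. The alternatives changed the pseudocount (1 or 64), the filter (none, or the 60th percentile), the scaling (quantile, or equal array medians), the variance model (no trend, array weights, a replicate block, only the arrays compared), the arrays (leaving out each) and the probe sets (their mean per gene). For genes of the lists they were added after seeing the data.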

Additional observations from a re-analysis of the deposited data

How the results depend on the processing

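TNFRSF12A kept its direction and its call in all 3 comparisons under all 20 alternatives, with log2 changes of 3.08 to 3.57 in cells labelled ERBB2 against vector, 2.48 to 3.09 with EGF against vector and 0.42 to 0.76 in cells labelled ERBB2 against EGF. Over the alternatives, 433 of 480 values of the 8 tested members kept direction and call. With equal array medians, 7322 probe sets were called higher and 2067 lower with EGF against vector, 2085 and 6701 in cells labelled ERBB2 against EGF, and 1 member was called lower with EGF, as it was with eBayes without trend. There TNFRSF10B stood at 0.074 with EGF against vector, and in cells labelled ERBB2 against EGF TNFRSF10A stood at -0.14 and TNFRSF21 at -0.14. In that last comparison 2 members were called higher without the filter, TNFRSF12A and TNFRSF11B, the latter tested only in that setting. In the same comparison 1 was called lower with eBayes without trend or with the mean of all probe sets. That mean turned TNFRSF10B to 0.26, TNFRSF10D to 0.29, LTBR to 0.16, CFLAR to -0.043 and TNFSF11 to -0.030. Leaving out 1 array, the members called lower there ranged from 1 to 3, with 1 without ERBB2 replicate 3, EGF replicate 1 or EGF replicate 3, and TNFRSF21 from -0.073 to 0.21, with -0.0074 without EGF replicate 2. The cause of these changes was not tested. Same-numbered arrays did not deviate together (r between -0.03 and 0.02), so the numbers were not taken as pairs. With the replicate block 3 members were called higher and 3 lower in cells labelled ERBB2 against vector, the FAS call ending (0.26, adjusted p = 0.05109, range over 20 alternatives 0.02342 to 0.1522), and the other calls of the members did not change. Signal over background is unknown, which limits CD40, TNFRSF11B and the dim ligands.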
